A study of Mus musculus with 12 samples.

Results

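Immunoglobulin variable and constant segment probe sets were examined in sorted mouse B lymphoma cells. A probe set belonged to this group when at least 1 of its annotated gene symbols started with Ighv, Igkv, Iglv, Ighg, Igkc, Iglc, Igh-, Igk- or Igl-, or was Ighm, Igha, Ighe or Ighd, and Ighmbp2 and Igll1 were left out. This gave 38 of the 35556 probe sets of the array. Of these, 16 belonged by symbol to the heavy chain locus, 20 to the kappa light chain locus and 2 to the lambda light chain locus. The RefSeq annotation of assembly GRCm38.p6 placed these loci on chromosomes 12, 6 and 16. It gave no chromosome for the heavy chain set Igh-VS107 (10403000). A single gene was annotated to 22 of them and several genes to 16, so many members cannot be tied to 1 segment. By symbol, 9 members held constant segments alone, 9 held constant and variable segments, and 20 held variable segments without a constant one. The last kind includes a set shared with Map3k20, which is no immunoglobulin gene, and a set shared with the joining segment Igkj1.

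The B cell receptor (BCR) is a membrane antibody made of paired heavy and light chains together with the signalling partners Cd79a and Cd79b. Each chain joins a variable domain, assembled in a developing B cell by recombination of gene segments at the heavy, kappa or lambda locus, to a constant region. Because a B cell normally expresses a single rearranged heavy chain and a single rearranged light chain, the variable segments that are transcribed at a high level differ between B cell clones. The B1-8 heavy chain, whose variable segment is Ighv1-72, is a rearranged heavy chain gene inserted into the mouse heavy chain locus, and in the B1-8f allele it can be deleted by Cre recombinase.

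The cells were primary cultures of B lymphomas from l-MYC;B1-8f mice of the strain C57BL/6J x BALB/c. All 4 groups came from the same 3 tumours, numbered 2567, 2646 and 2676, with 1 array per tumour in each group. The CHIR99021-treated BCR-negative group held cells that had lost the BCR after TAT-Cre, a Cre protein that enters cells, and had been given CHIR99021, which inhibits the kinase GSK3. The BCR-independent group held 1 clone of each tumour (clone 8 of 2567, clone 7 of 2646 and clone 1 of 2676), obtained after long culture of BCR-negative tumours and grown in mixture with that tumour's BCR-positive cells. The BCR-negative group was untreated and had lost the BCR after TAT-Cre, and the BCR-positive group was untreated and had kept it. Cells were sorted by flow cytometry from mixed cultures grown for 4 days, so the presence of the BCR was the sorting criterion. The sources used here give neither the promoter of the MYC transgene nor whether groups of a tumour shared a culture. An unexplained (2) closes the titles of the untreated BCR-negative and BCR-positive arrays in tumours 2646 and 2676. In those 2 tumours this title mark coincides with being untreated BCR-negative or BCR-positive and cannot be told apart from it in comparisons with the other groups.

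Values are log2 signals of Affymetrix whole-transcript mouse arrays, normalized by RMA. Array medians lay between 3.32 and 3.44, the 40th percentiles between 3.06 and 3.16 and the maxima between 12.26 and 12.34. Of 9 B cell markers, 8 were measured by a single-gene probe set and 7 of these exceeded the 40th percentile on at least 3 arrays, with a mean level between 6.94 and 8.08 per array. Ms4a1 (CD20), a defining marker of mature B cells, exceeded that percentile on 1 of 12 arrays. All 7 plasma cell markers were measured and 5 exceeded it on at least 3 arrays, with a mean level between 4.65 and 5.53. Among them Sdc1, Xbp1, Irf4 and Slamf7 exceeded it on 12 of 12 arrays, Tnfrsf17 on 3, Prdm1 on 1 and Jchain on 0. The mean levels of T cell markers (5 of 7 measured, 2.98 to 3.20), myeloid markers (6 of 6, 3.21 to 3.62) and stromal markers (6 of 6, 3.25 to 3.54) lay close to the array medians in all 4 groups. Single genes of these lists lay higher. The myeloid markers Itgam (4.08 to 5.97) and Cd68 (3.53 to 4.71) exceeded the 40th percentile on 12 of 12 arrays. Csf1r exceeded it on 9, Lyz2 on 1, and Cd14 and Adgre1 on 0. The stromal marker Col1a1 read 3.99 to 4.38. In these sorted bulk samples, a smaller share of cells with a transcript and less of it per cell cannot be told apart.

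Immunoglobulin probe sets varied widely over the 12 arrays, and the light chains contributed most of the variable members. The median range (highest minus lowest array) was 2.12 log2 units over the 38 members, against 0.56 over all 35556 probe sets. A range of at least 2 log2 units was found in 19 of 38 members, against 2.96% of all probe sets. By locus these were 14 of 20 kappa, 2 of 2 lambda and 3 of 16 heavy chain members. The median range was 3.52 for kappa, 6.18 for lambda and 0.48 for heavy chain members. Of all 38, 29 exceeded the 40th percentile of their array on at least 3 arrays and were tested (19 kappa, 2 lambda and 8 heavy chain). The other 9, which were 8 heavy chain sets and Igkv4-91, were described and not tested, and 8 of them lay below that percentile on all 12 arrays.

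**Figure D1:**
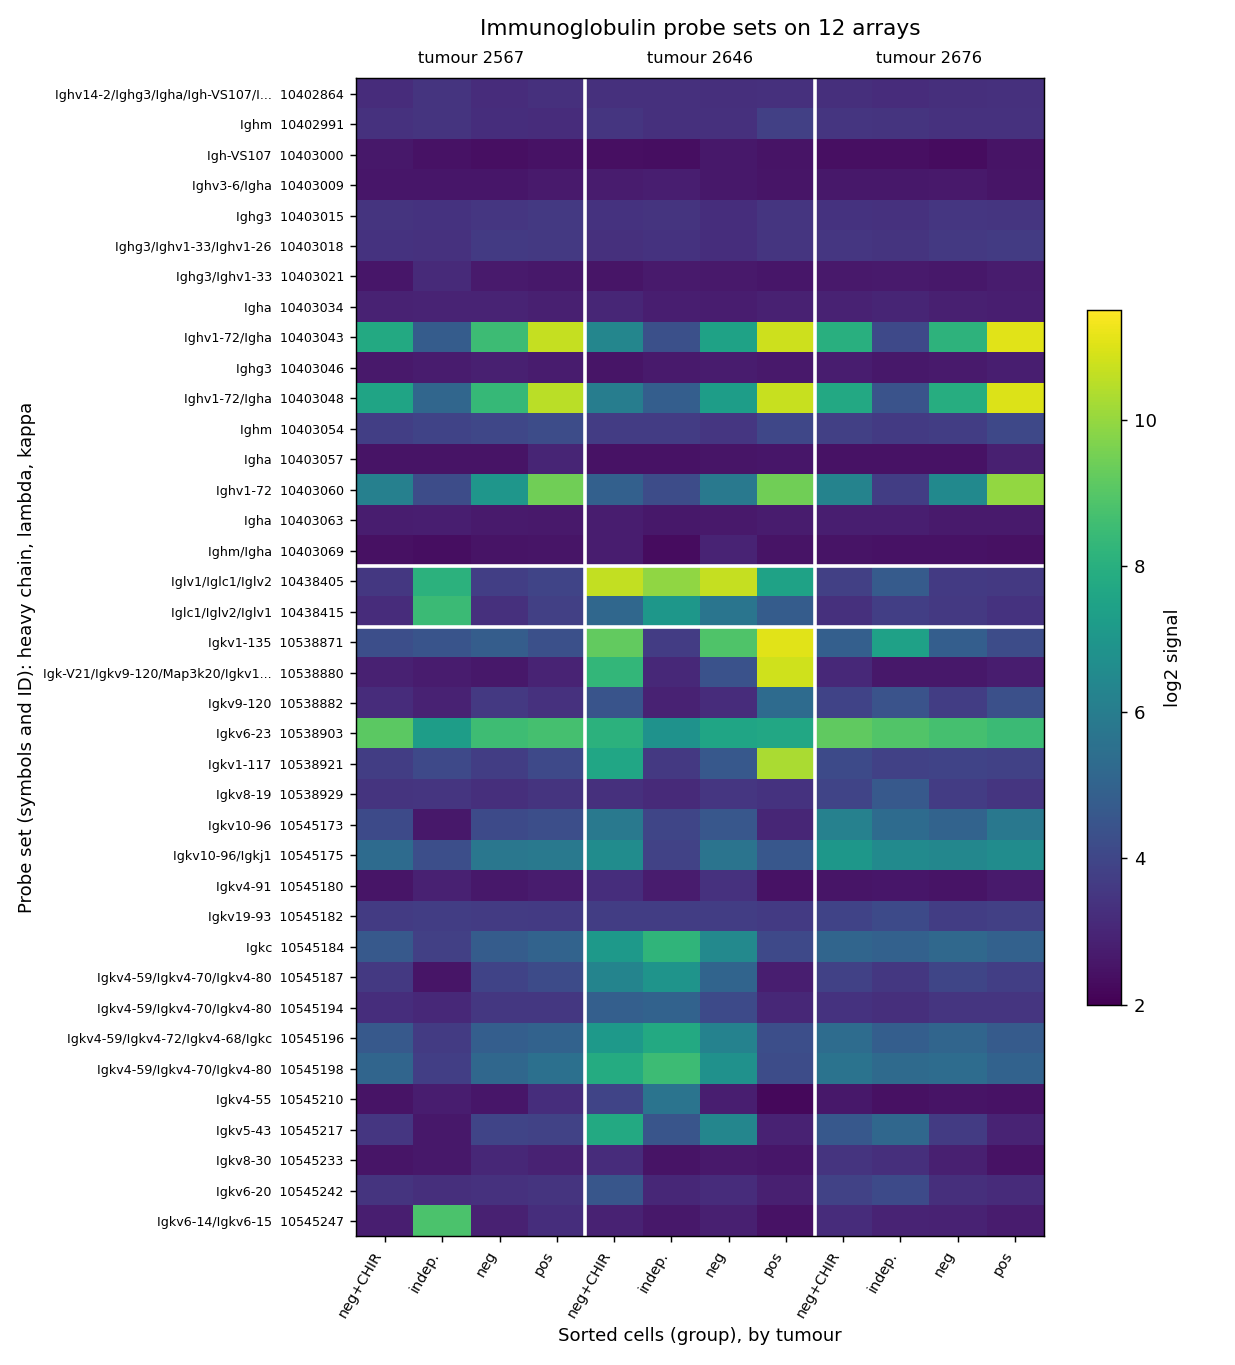
Log2 signal (colour) of each of the 38 immunoglobulin probe sets (rows, heavy chain above lambda above kappa) on 12 arrays (columns, by tumour and then by group). The 3 bright heavy chain rows are the Ighv1-72 sets, and most bright kappa cells lie in the columns of tumour 2646.

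**Figure D2:**
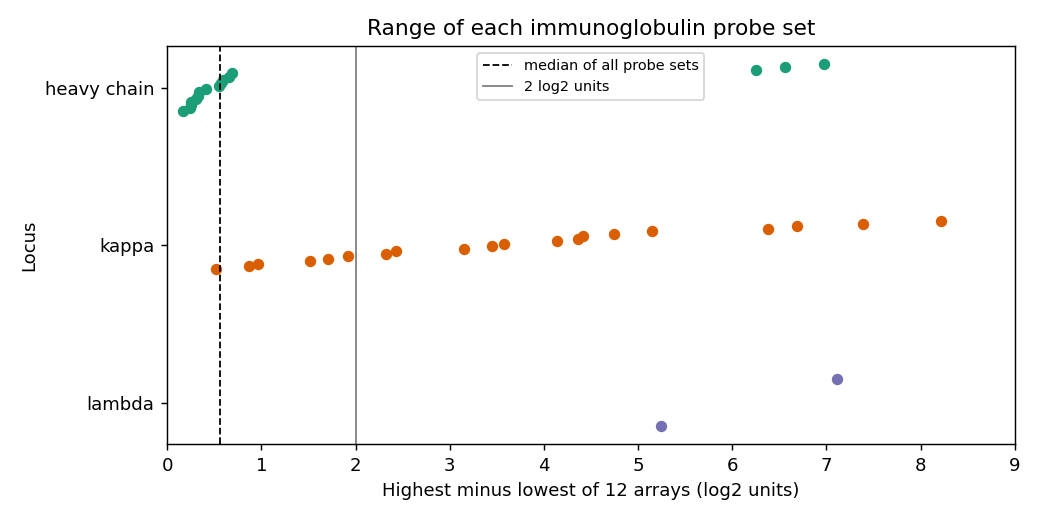
Range over 12 arrays in log2 units (horizontal axis) of each immunoglobulin probe set, by locus, with points offset vertically so that they do not overlap. The dashed line is the median of all probe sets (0.56) and the solid line marks 2 log2 units, which 3 of 16 heavy chain, 14 of 20 kappa and 2 of 2 lambda members reach.

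Ighv1-72 was the heavy chain segment with a strong signal, highest in BCR-positive cells and lowest in BCR-independent cells. It was represented by 3 probe sets, 1 annotated to Ighv1-72 alone (10403060) and 2 annotated to Ighv1-72 and Igha (10403043 and 10403048). In tumours 2567, 2646 and 2676, in that order here and below, probe set 10403060 read 6.13, 4.93 and 6.26 in CHIR99021-treated BCR-negative cells. It read 4.20, 4.21 and 3.72 in BCR-independent cells, 6.97, 5.85 and 6.50 in BCR-negative cells and 9.45, 9.45 and 9.97 in BCR-positive cells. The BCR-positive arrays lay above all 9 others and the BCR-independent arrays below all 9 others, while treated and untreated BCR-negative cells overlapped. Group means were 5.77 ± 0.73 in treated BCR-negative, 4.04 ± 0.28 in BCR-independent, 6.44 ± 0.57 in BCR-negative and 9.62 ± 0.30 in BCR-positive cells (SD, n = 3 each).

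The sets shared with Igha gave the same order of groups. Probe set 10403043 read 7.77, 6.34 and 7.98 in treated BCR-negative cells, 4.76, 4.32 and 4.10 in the BCR-independent clones, 8.51, 7.47 and 8.12 in BCR-negative cells and 10.66, 10.76 and 11.07 in BCR-positive cells. Probe set 10403048 read 7.54, 6.02 and 7.72 in treated BCR-negative cells, 5.13, 4.84 and 4.42 in the BCR-independent clones, 8.36, 7.27 and 7.94 in BCR-negative cells and 10.52, 10.69 and 10.98 in BCR-positive cells. In both sets, tumour 2646 had the lowest signal of the 3 tumours in treated and in untreated BCR-negative cells. The Ighv1-72 sets correlated with each other between r = 0.98 and r = 1.00 over the 12 arrays. This is a description, since they share annotated transcripts (3 between 10403043 and 10403048, 1 in each other pair) and heavy chain variable segments resemble each other closely.

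**Figure D3:**
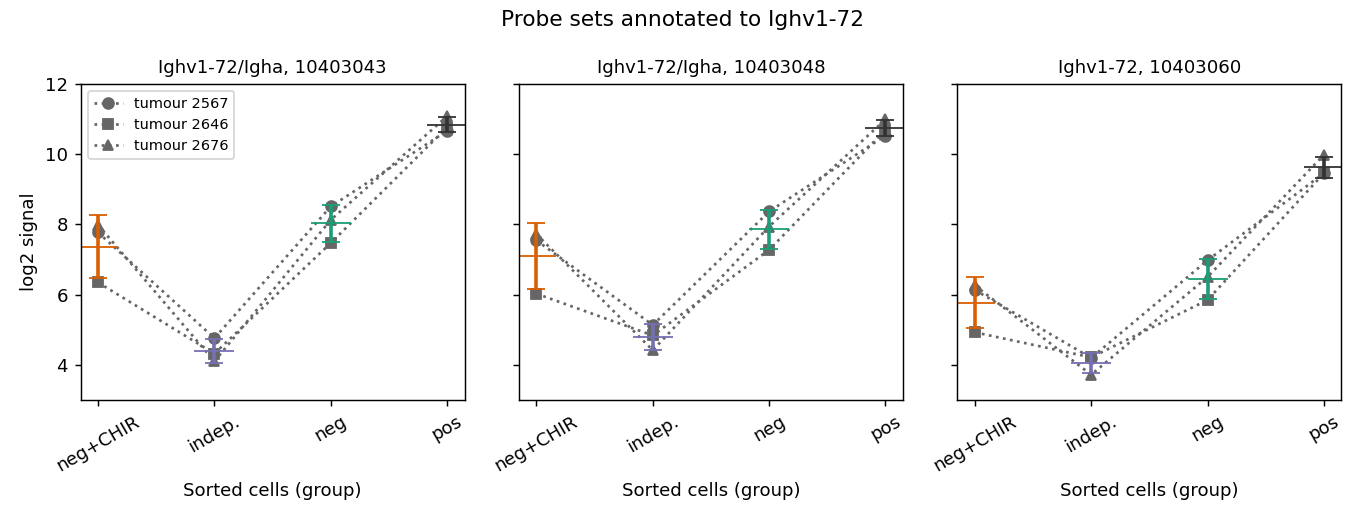
Log2 signal (vertical axis) of the 3 probe sets annotated to Ighv1-72 in each group, with a symbol per tumour joined by dotted lines, and the group mean ± SD (n = 3) as coloured bars. BCR-positive arrays lie highest and BCR-independent arrays lowest in each panel.

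Setting BCR-negative against BCR-positive cells follows the transcript that Cre deletion targets. In limma, fitted with group and tumour over all 12 arrays and adjusted with Benjamini-Hochberg over 23197 probe sets, Ighv1-72 (10403060) differed by -3.18 log2 units in BCR-negative cells (SE 0.32, adjusted p = 0.0703, lower in 3 of 3 tumours). The signal left was 11% of that in BCR-positive cells. Probe set 10403043 differed by -2.80 (SE 0.32, adjusted p = 0.0703) and 10403048 by -2.87 (SE 0.36, adjusted p = 0.0999), which left 14.4% and 13.7%. Single tumours differed by -2.48, -3.60 and -3.47 for 10403060, so each tumour's difference exceeded the spread within either group. At the threshold of 0.05, 0 of 29 members were called, against 0% of all probe sets tested. At an unadjusted p under 0.05, 4 of 29 passed (the Ighv1-72 sets and Ighm), against 3.58% of all. A decrease of at least 2-fold in each tumour was found in 3 of 38 members, all Ighv1-72 sets, against 0.0197% of all probe sets, and an increase of that size in 0 members against 0.00281%.

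BCR-independent clones had the lowest Ighv1-72 signal. Against BCR-negative cells of the same tumours, 10403043 fell by 3.64 (SE 0.32, limma adjusted p = 0.0189), to 8.04% of the signal, and it was the single member called of 29, against 0.00862% of all probe sets. Probe sets 10403048 (-3.06, adjusted p = 0.121) and 10403060 (-2.40, adjusted p = 0.186) were lower in 3 of 3 tumours and missed the threshold. The members with an unadjusted p under 0.05 were 4 of 29, against 5.63%. At least 2-fold decreases in each tumour occurred in 3 of 38 members against 0.0197%, and increases in 0 members against 0.00844%.

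Against BCR-positive cells, the Ighv1-72 sets fell in BCR-independent cells, with differences of -6.43, -5.93 and -5.58 log2 units for 10403043, 10403048 and 10403060 (SE 0.32, 0.36 and 0.32). Their limma adjusted p-values were 0.000302, 0.000378 and 0.000376, and the signal left was 1.16%, 1.64% and 2.09%. They were the 3 members called of 29, against 0.0647% of all probe sets. An unadjusted p under 0.05 was reached by 6 of 29, against 8.46%. A decrease of at least 2-fold in each tumour was found in 3 of 38 members against 0.0281%, and an increase in 1 of 38, a lambda set, against 0.0309%.

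CHIR99021-treated cells had a slightly lower Ighv1-72 signal than untreated BCR-negative cells, a difference that did not pass the test. Treated minus untreated BCR-negative cells differed by -0.67 for 10403043, -0.76 for 10403048 and -0.67 for 10403060 (SE 0.32, 0.36 and 0.32), lower in 3 of 3 tumours in each set. The limma adjusted p-values were 0.407, 0.392 and 0.395, and the groups overlapped. Here 0 of 29 members were called against 0.155% of all probe sets, and 0 of 29 had an unadjusted p under 0.05 against 14%. By the rule of 2-fold in each tumour, 0 of 38 members were higher against 0.0169%, and 0 lower against 0.0731%.

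Against BCR-positive cells, the sets fell in treated BCR-negative cells, with differences of -3.46, -3.64 and -3.85 log2 units in 10403043, 10403048 and 10403060 (SE 0.32, 0.36 and 0.32). The limma adjusted p-values were 0.00805, 0.0103 and 0.00805, and these were the 3 members called of 29, against 0.147% of all probe sets. An unadjusted p under 0.05 was reached by 5 of 29, against 12.8%. Against BCR-independent cells, 10403043 rose by 2.97 (SE 0.32, adjusted p = 0.0384) in treated BCR-negative cells, the 1 member called of 29 against 0.0259%, with 7 of 29 at an unadjusted p under 0.05 against 10.3%. Probe sets 10403048 (2.30, adjusted p = 0.083) and 10403060 (1.73, adjusted p = 0.0883) were higher in 3 of 3 tumours and missed the threshold. These comparisons share arrays, so their results are not independent of each other.

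Leaving out a tumour ended most of these calls. With any 1 of tumours 2567, 2646 and 2676 left out, 0 members were called for BCR-independent against BCR-negative cells and for treated BCR-negative cells against BCR-positive or BCR-independent cells. For BCR-independent against BCR-positive cells, 0 were called without tumour 2676 (adjusted p = 0.062 for each Ighv1-72 set). With the title mark as a further term, 0 were called for BCR-independent against BCR-negative cells and for treated BCR-negative against BCR-positive or BCR-independent cells. The direction in the Ighv1-72 sets was the same in all of these fits.

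The remaining heavy chain members were dim. The 13 heavy chain probe sets without Ighv1-72 read between 2.30 and 4.20 over all arrays, with ranges of 0.17 to 0.69 log2 units, and 5 of them were tested. Ighm encodes the constant region of IgM, the class that naive B cells carry first. Its probe set 10403054 read 3.77, 3.70 and 3.81 in treated BCR-negative cells, 3.91, 3.69 and 3.60 in the BCR-independent clones, 4.03, 3.51 and 3.73 in BCR-negative cells and 4.20, 4.01 and 4.05 in BCR-positive cells. BCR-positive arrays were highest within each tumour, by margins of under 1 log2 unit, and BCR-negative and BCR-positive cells overlapped over tumours. The difference was -0.33 (SE 0.10, limma adjusted p = 0.999) for BCR-negative minus BCR-positive cells and -0.33 (SE 0.10, adjusted p = 0.227) for treated BCR-negative minus BCR-positive cells. The second Ighm set, 10402991, lay between 3.20 and 3.79. Its highest value was in BCR-positive cells of tumour 2646 and its lowest in BCR-positive cells of tumour 2567. Between BCR-independent and BCR-negative cells it differed by 0.08 (SE 0.13, adjusted p = 0.952). Probe sets labelled Ighg3 and Igha, the constant regions of IgG3 and IgA, were 8 heavy chain constant members together with Ighm, and 3 of the 8 passed the filter. Which exons these sets cover was not tested.

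**Figure D4:**
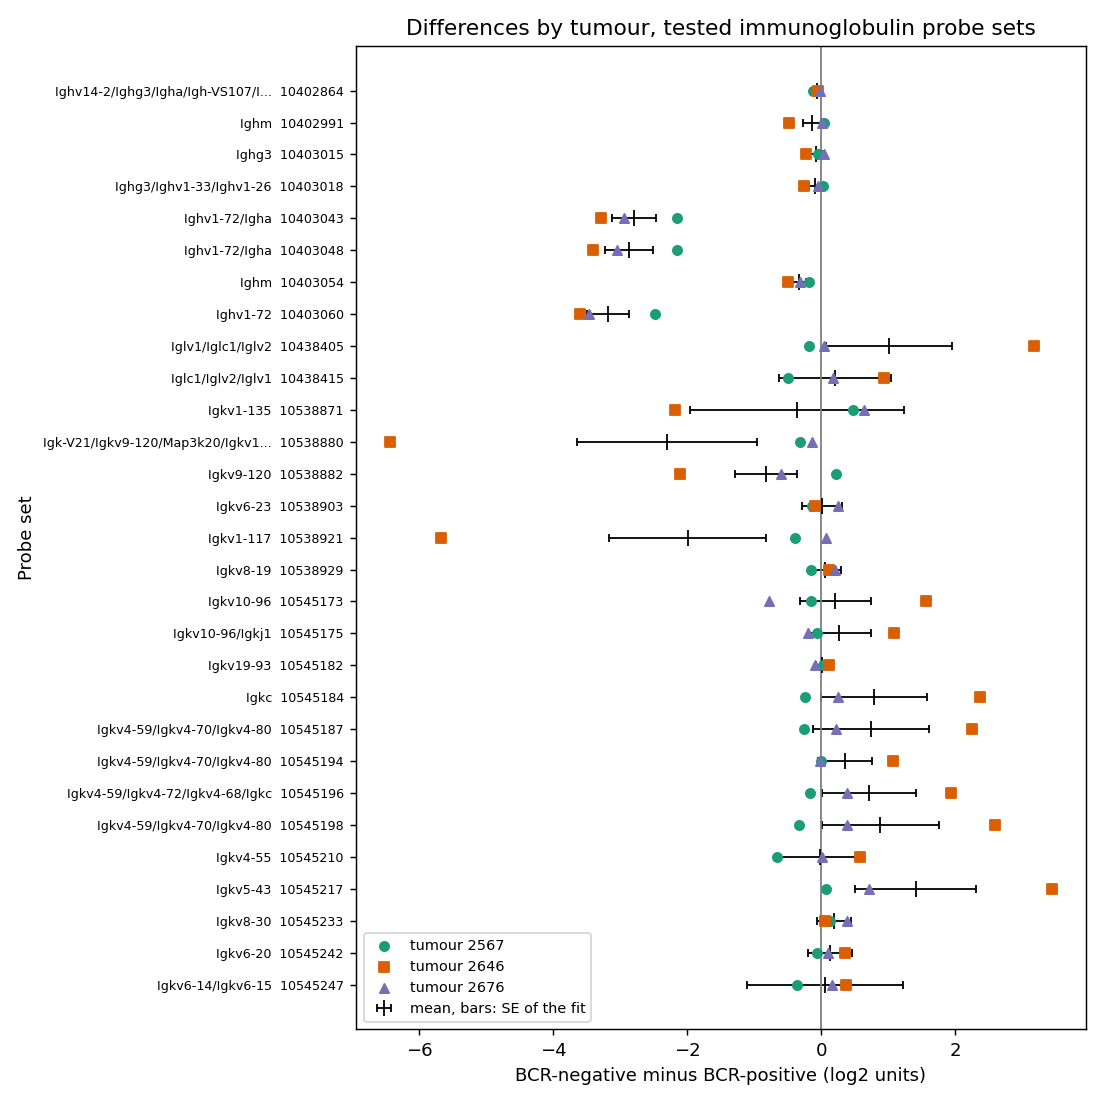
BCR-negative minus BCR-positive log2 signal (horizontal axis) for the 29 tested immunoglobulin probe sets (rows), with a symbol per tumour and the fitted mean ± SE as a black bar. The Ighv1-72 sets lie between -2.15 and -3.60 in all tumours, while light chain sets spread mainly through the squares of tumour 2646.

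Light chain probe sets differed between arrays of a tumour and between tumours, and 0 of the 21 tested were called by limma in any of the 6 comparisons. An unadjusted p under 0.05 was reached by 0 of 21 for treated against untreated BCR-negative cells (14% of all probe sets tested) and by 1 for BCR-independent against BCR-negative cells (5.63% of all). Against BCR-positive cells it was reached by 0 of 21 for BCR-negative (3.58% of all), 2 for BCR-independent (8.46%) and 1 for treated BCR-negative cells (12.8%). For treated BCR-negative against BCR-independent cells it was reached by 4 of 21 (10.3%). Most of these counts are at or below the share over all probe sets. Directions were mixed over the 3 tumours in 14 to 20 of the 21 sets, depending on the comparison. The median standard error of a difference was 0.70 log2 units for light chain sets, against 0.12 for the 8 tested heavy chain sets. Of the 22 light chain members, 16 had a range of at least 2 log2 units. The highest array of these 16 was one of tumour 2646 in 11, of tumour 2676 in 3 and of tumour 2567 in 2.

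**Figure D5:**
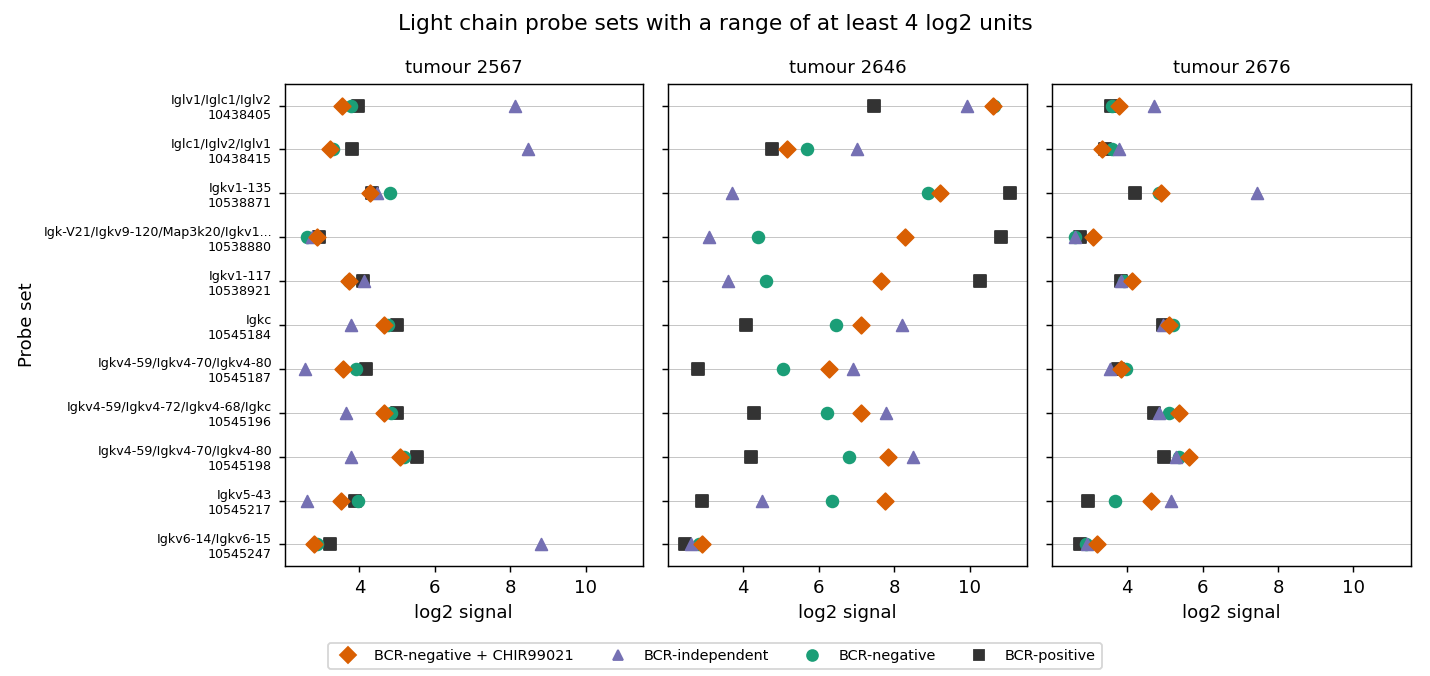
Log2 signal (horizontal axis) of the 11 light chain probe sets with a range of at least 4 log2 units, 1 panel per tumour and 1 symbol per group. In tumour 2646 the groups are spread along the axis, and in tumours 2567 and 2676 single BCR-independent points stand to the right.

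Lambda light chains were high in single tumours and clones. The probe set annotated to Iglv1, Iglc1 and Iglv2 (10438405), variable and constant segments of the lambda locus, read 3.54, 10.63 and 3.79 in treated BCR-negative cells, and 8.12, 9.92 and 4.72 in the BCR-independent clones. It read 3.78, 10.65 and 3.60 in BCR-negative cells and 3.96, 7.47 and 3.56 in BCR-positive cells. Signal was thus high in all 4 arrays of tumour 2646 and in clone 8 of tumour 2567, and near the array medians in most others. The second lambda set (10438415, the same 3 genes) read 3.22, 5.17 and 3.33 in treated BCR-negative cells, 8.47, 7.02 and 3.77 in the BCR-independent clones, 3.30, 5.70 and 3.59 in BCR-negative cells and 3.79, 4.76 and 3.40 in BCR-positive cells. Here the clones of tumours 2567 and 2646 stood above all other arrays. BCR-independent cells were higher than BCR-positive cells in 3 of 3 tumours in both sets, by 2.59 (SE 0.94, limma adjusted p = 0.529) and 2.43 (SE 0.84, adjusted p = 0.51). Neither passed the test, and the differences by tumour were 4.15, 2.46 and 1.16 for 10438405. Against BCR-negative cells, 10438415 differed by 2.22 (SE 0.84, limma adjusted p = 0.842), with 5.17 in tumour 2567, 1.32 in 2646 and 0.18 in 2676. The 2 lambda sets correlated at r = 0.77 over the 12 arrays.

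In tumour 2646, BCR-positive cells had a kappa signal that the other cells of that tumour held at lower levels. Igkv1-117, a kappa variable segment, read 3.73, 7.64 and 4.12 in treated BCR-negative cells, 4.11, 3.60 and 3.83 in the BCR-independent clones, 3.72, 4.61 and 3.92 in BCR-negative cells and 4.11, 10.28 and 3.85 in BCR-positive cells. A set annotated to Igk-V21, Igkv9-120, Igkv1-117 and Map3k20, a kinase gene (10538880), read 2.88, 8.29 and 3.09 in treated BCR-negative, 2.74, 3.08 and 2.62 in BCR-independent, 2.61, 4.38 and 2.61 in BCR-negative and 2.93, 10.83 and 2.75 in BCR-positive cells. Both sets were high in BCR-positive and in treated BCR-negative cells of tumour 2646 alone, and correlated at r = 0.99 over the 12 arrays. In tumour 2646 the BCR-negative signal was 51.0-fold lower for Igkv1-117 and 87.1-fold lower for 10538880 than the BCR-positive signal. Treated BCR-negative cells lay above untreated BCR-negative cells there by 3.03 and 3.90 log2 units, values that rest on 1 array against 1 and have no test. In the fit over all tumours these differences were 1.08 and 1.55, with only small rises outside tumour 2646, and limma called neither. Against BCR-positive cells, 10538880 differed by -2.30 in BCR-negative and -2.69 in BCR-independent cells. It was lower in every tumour in both comparisons and called in neither. Outside tumour 2646 all its values lay below the 40th percentile of their arrays, so its direction in the other tumours carries little weight.

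Igkv1-135 and Igkv9-120, kappa segments of the same locus, were also highest in BCR-positive cells of tumour 2646. Igkv1-135 read 4.27, 9.22 and 4.89 in treated BCR-negative cells, 4.47, 3.69 and 7.45 in the BCR-independent clones, 4.80, 8.90 and 4.85 in BCR-negative cells and 4.33, 11.08 and 4.22 in BCR-positive cells. Beside tumour 2646, where the clone was the 1 low array, it was high in the BCR-independent clone of tumour 2676. Igkv9-120 (10538882) read 4.48 in treated BCR-negative, 2.92 in BCR-independent, 3.22 in BCR-negative and 5.33 in BCR-positive cells of tumour 2646, and between 2.90 and 4.42 in the other tumours. In the order of kappa segments along the chromosome, Igkv9-120 and Igkv1-117 lie 5 annotated segments apart and Igkv1-135 and Igkv9-120 lie 17 apart.

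A group of Igkv4 sets and the set labelled Igkc ran the other way in tumour 2646, lowest in BCR-positive cells and highest in the BCR-independent clone. Igkc encodes the constant region shared by kappa chains. Its probe set (10545184) read 4.65, 7.12 and 5.11 in treated BCR-negative cells, 3.78, 8.20 and 4.95 in the BCR-independent clones, 4.76, 6.46 and 5.21 in BCR-negative cells and 5.01, 4.08 and 4.95 in BCR-positive cells. The Igkv4-59, Igkv4-70 and Igkv4-80 set 10545198 read 5.09, 7.84 and 5.63 in treated BCR-negative cells, 3.76, 8.51 and 5.28 in the BCR-independent clones, 5.18, 6.81 and 5.37 in BCR-negative cells and 5.52, 4.21 and 4.98 in BCR-positive cells. In tumour 2567 the order was turned, with the clone lowest and BCR-positive cells highest, and in tumour 2676 the 4 arrays lay within 1 log2 unit. The other sets with the same order in tumour 2646 were 10545187 (6.27, 6.91, 5.05 and 2.79 in treated BCR-negative, BCR-independent, BCR-negative and BCR-positive cells), 10545194 (4.88, 4.99, 4.14 and 3.07) and 10545196 (7.13, 7.79, 6.23 and 4.29). The 5 sets correlated between r = 0.96 and r = 1.00 over the 12 arrays. This is a description, since the Igkc set shares 2 annotated transcripts with 10545196, and the Igkv4 sets share 1 to 4 with each other. The set labelled Igkc thus read low in BCR-positive cells of tumour 2646, the array with the highest Igkv1-117 signal, and whether its probes lie in the constant exon was not tested.

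Other kappa segments marked single clones or groups. Igkv6-14 and Igkv6-15, neighbours on the chromosome that share a probe set (10545247), read 8.82 in the BCR-independent clone of tumour 2567, and between 2.45 and 3.23 on the other 11 arrays. Most of those 11 values lie below the 40th percentile of their array, so no fold is given. Igkv4-55 read 5.67 in the BCR-independent clone of tumour 2646 and 3.93 in its treated BCR-negative cells, against 2.79 in its BCR-negative and 2.22 in its BCR-positive cells. Outside tumour 2646 its highest value was 3.25. Igkv5-43 read 3.52, 7.75 and 4.63 in treated BCR-negative cells, 2.60, 4.49 and 5.16 in the BCR-independent clones, 3.96, 6.35 and 3.67 in BCR-negative cells and 3.88, 2.90 and 2.96 in BCR-positive cells. It was higher in BCR-negative than in BCR-positive cells in 3 of 3 tumours, by 1.41 on average (SE 0.91, limma adjusted p = 0.999), of which tumour 2646 gave 3.45.

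In treated cells, a few kappa segments lay higher on average and did not pass the test. Their direction was the same in every tumour, but some of these differences were close to nil. In tumour 2567, Igkv1-117 read 3.73 in treated and 3.72 in untreated BCR-negative cells, and Igkv10-96 read 4.13 in both. The largest mean rises over untreated BCR-negative cells were 1.55 for 10538880 and 1.08 for Igkv1-117. Both came mainly from tumour 2646, with 3.90 and 3.03 there. In tumours 2567 and 2676 the values of 10538880 lay below the 40th percentile of their arrays. The other sets rose less. Igkv6-20 read 3.44, 4.56 and 3.86 in treated BCR-negative cells, 3.27, 3.06 and 4.13 in the BCR-independent clones, 3.36, 3.21 and 3.29 in BCR-negative cells and 3.42, 2.85 and 3.19 in BCR-positive cells. The lowest treated array (3.44) lay barely above the highest BCR-negative array (3.36) and the highest BCR-positive array (3.42), so the groups were hardly separated. The differences were 0.67 (SE 0.32, limma adjusted p = 0.41) against BCR-negative and 0.80 (SE 0.32, adjusted p = 0.349) against BCR-positive cells. Igkv6-23 read 9.12, 8.11 and 9.17 in treated BCR-negative, 7.29, 6.84 and 8.94 in BCR-independent, 8.57, 7.59 and 8.71 in BCR-negative and 8.70, 7.69 and 8.46 in BCR-positive cells. All its 12 arrays lay far above the array medians, unlike those of most kappa sets. It differed by 0.51 (SE 0.30, adjusted p = 0.514) between treated and untreated BCR-negative cells and by 0.52 (SE 0.30, adjusted p = 0.531) between treated BCR-negative and BCR-positive cells. Igkv10-96 (10545173) read 4.13, 5.85 and 6.19 in treated against 4.13, 4.57 and 5.03 in untreated BCR-negative cells, a difference of 0.82 (SE 0.53, adjusted p = 0.563). Its second set, annotated also to the joining segment Igkj1 (10545175), was higher in treated BCR-negative than in BCR-independent cells in 3 of 3 tumours, by 1.42 (SE 0.47, limma adjusted p = 0.362). Igkv8-19, Igkv8-30 and Igkv19-93 lay between 2.46 and 4.67 on all arrays.

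Within single tumours, changes of at least 4-fold in either direction were counted over all 38 members. Between BCR-negative and BCR-positive cells, 12 members of tumour 2646 reached this, against 0.194% of all probe sets. They were the 3 Ighv1-72 sets, 4 light chain sets that were lower in BCR-negative cells (Igkv1-135, Igkv9-120, Igkv1-117 and 10538880) and 5 that were higher (10438405, Igkc, 10545187, 10545198 and Igkv5-43). In tumours 2567 and 2676, 3 members each reached it, all Ighv1-72 sets, against 0.0675% and 0.0478%. Between BCR-independent and BCR-negative cells, 6 members of tumour 2567 reached it against 0.256%, 4 of tumour 2646 against 0.0787% and 4 of tumour 2676 against 0.124%. The light chain sets among them were both lambda sets and Igkv6-14/Igkv6-15 in tumour 2567, Igkv1-135 (lower) and Igkv4-55 (higher) in tumour 2646, and Igkv1-135 (higher) in tumour 2676. Between treated and untreated BCR-negative cells, 2 members of tumour 2646 reached it against 0.112%, Igkv1-117 and 10538880, and 0 members of tumours 2567 and 2676 against 0.262% and 0.0225%. Each such value compares 1 array with 1 array and has no replicate check. Several of these sets share annotated transcripts or correlate closely, as given above, so the counts are not of separate transcripts.

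No member marked all 4 groups of a tumour. With set apart meaning that the lowest of a tumour's 4 arrays lay at least 1 log2 unit above the highest of the other 8, 0 members were set apart in tumours 2567, 2646 and 2676. Over all probe sets the shares were 0.0112%, 0.0253% and 0.16%. A variant of the rule left out the BCR-independent clones, which held the arrays that kept some members from passing. In this variant, 3 of 38 members were set apart in tumour 2646, against 0.0422% of all probe sets, and 0 in tumours 2567 and 2676, against 0.0394% and 0.183%. They were Igkv1-135 with a gap of 4.01 log2 units, the lambda set 10438405 with 3.50 and the Igkv1-117 and Igkv9-120 set 10538880 with 1.30. In the clone of that tumour, Igkv1-135 and 10538880 read 3.69 and 3.08, against at least 8.90 and 4.38 in its other 3 arrays, while 10438405 read 9.92.

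Genes around the immunoglobulin loci were followed in a list of 30 that covered signalling partners, the surrogate light chain, recombination, transcription and secretion. Of these, 27 were measured and 24 tested, and 0 were called by limma in each of the 6 comparisons. At an unadjusted p under 0.05, 3 of 24 were higher and 8 lower in treated than in untreated BCR-negative cells, against 14% of all probe sets tested in either direction, with a median difference of -0.16 over the tested genes, against 0.02 over all probe sets. Tcf3 (E2A), a transcription factor that acts on immunoglobulin enhancers, averaged 8.46 ± 0.29 in treated and 9.02 ± 0.09 in untreated BCR-negative cells (SD, n = 3 each), a difference of -0.56 (SE 0.10, adjusted p = 0.0717). Pou2af1, a coactivator of the octamer-binding factors at immunoglobulin promoters, differed by -0.44 (SE 0.09, adjusted p = 0.0869). Both were lower in 3 of 3 tumours. Against BCR-positive cells, treated BCR-negative cells had 1 gene higher and 9 lower at that p (12.8% of all probe sets), led by Tcf3 (-0.58, adjusted p = 0.0804) and Pou2af1 (-0.48, adjusted p = 0.0907). Against BCR-independent cells they had 3 higher and 7 lower (10.3% of all), led by Pou2af1 (-0.41, adjusted p = 0.167) and Pax5 (-0.48, adjusted p = 0.211), the factor that maintains B cell identity.

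The other 3 comparisons hold no treated cells. BCR-independent cells had 1 gene higher and 4 lower than BCR-negative cells at an unadjusted p under 0.05, against 5.63% of all probe sets tested, led by Tcf3 (-0.29, adjusted p = 0.822) and Ebf1 (-0.80, adjusted p = 0.823), an early B lineage factor. BCR-negative cells had 0 higher and 2 lower than BCR-positive cells, against 3.58%, Pou2f2 (Oct-2; -0.36, adjusted p = 0.999) and Spib (-0.66, adjusted p = 0.999), both factors of the B lineage. BCR-independent cells had 0 higher and 8 lower than BCR-positive cells, against 8.46%, led by Ets1 (-0.52, adjusted p = 0.439), a transcription factor, and Igll1 (-2.60, adjusted p = 0.443). Igll1 encodes lambda 5, a part of the surrogate light chain that pairs with the heavy chain before a light chain is made. It read 4.09, 4.38 and 8.65 in treated BCR-negative cells, 4.00, 3.92 and 4.07 in the BCR-independent clones, 4.27, 4.70 and 8.03 in BCR-negative cells and 5.27, 5.55 and 8.99 in BCR-positive cells. It was high in tumour 2676 except in the BCR-independent clone. The highest BCR-independent array (4.07) lay just below the lowest treated (4.09) and BCR-negative (4.27) arrays, so separation from those groups was slight.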

How the data were processed

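Labelled cDNA from total RNA of sorted cells was hybridised to 12 arrays. The authors deposited log2 expression values, which the submitters' processing notes credit to Affymetrix Power Tools and RMA, versions not given. RMA compresses differences between dim probe sets. The values were used as deposited, and 0 columns lacked a sample. Symbols came from the platform annotation, and 34 of 36 gene IDs of members matched RefSeq (GRCm38.p6, used for names, chromosomes and segment order). No detection calls were used, and precision is limited by the array number.

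In R 4.3.3, limma 3.58.1 (lmFit, eBayes) fitted group with the tumour number as a block over 12 arrays, on the 23197 probe sets that exceeded the 40th percentile of at least 3 arrays, with Benjamini-Hochberg adjustment over all of them and a threshold of 0.05. The fit left 6 residual degrees of freedom. Same-numbered arrays come from the same tumour, as the titles state: the residual correlation was 0.27 to 0.67 within a tumour and -0.70 to 0.07 between tumours. The fit was tested on simulated data. Since no further replicates exist, p-values reflect only how much these samples vary.

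Members, lists and rules were chosen with earlier results of these data known. The members named are the Ighv1-72 sets, called members, constant region sets, the 5 with the highest mean, and up to 5 in each direction and comparison that moved alike in 3 tumours; of the list, the 2 genes with the smallest p per comparison. Light chain sets outside this rule, chosen after their values were seen, are described by array without a test. The alternatives were no tumour block, no filter, the 60th percentile as a stricter filter, a robust prior with an intensity trend, quantile normalization, only the 2 groups compared, the title mark as a term, each tumour left out and, added after seeing the data, 1 probe set per gene.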

Additional observations from a re-analysis of the deposited data

How the results depend on the processing

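For the counts of members called, 6 comparisons were recomputed under 11 alternatives. For treated against untreated BCR-negative cells the count stayed at 0 in every alternative. For BCR-independent against BCR-negative cells (1 called) it was 0 with only the 2 groups, with the title mark, and with 1 probe set per gene, and 0 to 0 with a tumour left out. For BCR-negative against BCR-positive cells (0 called) it was 2 with the stricter filter (Ighv1-72 sets 10403043 and 10403060, adjusted p = 0.0487 and 0.048) and 1 with 1 probe set per gene, where Ighv1-72 (10403060) had an adjusted p of 0.0241. For BCR-independent against BCR-positive cells (3 called) it was 1 with 1 probe set per gene, which keeps 1 Ighv1-72 set, and 0 to 3 with a tumour left out. For treated BCR-negative against BCR-positive cells (3 called) it was 0 with only the 2 groups, 0 with the title mark, 1 with 1 probe set per gene and 0 to 0 with a tumour left out. For treated BCR-negative against BCR-independent cells (1 called) it was 0 with no filter, with only the 2 groups, with the title mark and with 1 probe set per gene, and 0 to 0 with a tumour left out. Without the replicate block it was also 0 there (adjusted p = 0.0771 for 10403043), and leaving out the block changed no other count by over 1.5 times. Members set apart in tumour 2646 were 3 without the BCR-independent arrays (0.0422% of all probe sets) and 0 with them (0.0253%). Of the differences of named members, 409 values kept their direction and side of the threshold, 30 kept direction and lost the threshold, 3 passed it and 2 turned. Those were treated minus untreated BCR-negative cells with the title mark as a term, at 0.93 for the lambda set 10438415 and -0.23 for Igkv10-96. The cause of these changes was not tested. Fits with a tumour left out hold fewer arrays, and the fit with the mark has fewer residual degrees of freedom (5). Signal over background limits the dim heavy chain sets, which have no detection calls.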

Other observations

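Genes named here were chosen after their values were seen and are given as values, with no test beyond the fit. Rag2, a subunit of the recombinase that joins immunoglobulin segments, read 2.66, 4.23 and 3.20 in treated BCR-negative cells, 5.36, 6.65 and 3.44 in the BCR-independent clones, 4.54, 7.07 and 4.55 in BCR-negative cells and 4.43, 4.42 and 3.97 in BCR-positive cells of tumours 2567, 2646 and 2676. Its treated arrays lay below the untreated BCR-negative arrays, with a mean difference of -2.03 log2 units (SE 0.55, limma adjusted p = 0.144). Within tumour 2646, Rag2 was highest in the BCR-negative and BCR-independent arrays, and a link to the light chain signals was not tested.

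Vpreb1, the partner of Igll1 in the surrogate light chain, read 3.24, 3.59 and 5.95 in treated BCR-negative cells, 3.52, 3.69 and 4.10 in the BCR-independent clones, 3.32, 3.58 and 6.20 in BCR-negative cells and 4.00, 4.08 and 6.96 in BCR-positive cells. Its highest arrays were the 3 of tumour 2676 outside the clone, as for Igll1.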
